A study of Mus musculus with 7 samples.

Results

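Tmem59l, Dmkn and Car6 are 3 of the 54532 genes listed for cells sorted from the olfactory epithelium of young mice. They were chosen by name for a very large excess of transcripts in libraries of mature olfactory sensory neurons, so that excess is described here and not tested. OMP-GFP mice gave the mature neurons on postnatal days 2, 7 and 16 (P2, P7 and P16, 3 libraries). Neurog1-GFP mice gave intermediate progenitor cells on days 3, 7, 9 and 16 (4 libraries). Each library was a pool of cells purified by fluorescence from olfactory epithelia, and each age had 1 library in a population. Population and mouse line coincide and cannot be told apart. The ages serve as the replicates of a population, so p-values measure the spread between libraries, which holds age and may be technical.

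Tmem59l encodes a membrane protein of neurons, related to Tmem59, a Golgi and endosomal protein tied to the handling of the amyloid precursor protein and to autophagy. Dmkn encodes dermokine, a secreted protein best known from differentiating keratinocytes of the skin, and lies beside Sbsn and Krtdap, which encode other secreted proteins of that tissue. Car6 encodes the secreted member of the carbonic anhydrases, the enzymes that interconvert carbon dioxide and bicarbonate, and is known from saliva and other gland secretions. In the nose, mature sensory neurons send cilia into mucus that is supplied in part by Bowman's glands.

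Each library held 24203965 to 25930727 reads counted on genes, and 17975 genes passed the filter on low counts, the 3 genes among them. The labels were checked with marker lists. Of 19 mature neuron genes 18 were higher in mature neurons, and the exception was Omp, at 1936 ± 442 CPM (counts scaled to a common library size) over 3 mature neuron libraries, against 2566 ± 632 CPM over 4 progenitor libraries (± SD). Of 16 progenitor and immature neuron genes 15 were lower in mature neurons (edgeR quasi-likelihood test, adjusted p under 0.05). Over all tested genes 28.8% were higher and 30.0% lower. The mature neuron list summed to 26673 to 39410 CPM in mature neurons and still to 8329 to 12504.5 CPM in progenitors. The progenitor and immature neuron list summed to 10252 to 11686 CPM in progenitors and 1882 to 2871 CPM in mature neurons. The progenitor libraries thus held many mature neuron transcripts, whose source was not tested. Without the P7 progenitors 1 mature neuron gene was lower.

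The 3 loci lie on separate chromosomes of GRCm38, and none shares exon sequence or gene body with another annotated gene. Tmem59l (ENSMUSG00000035964) spans 70483867 to 70487358 of chromosome 8 on the minus strand, with 2 annotated transcripts. Dmkn (ENSMUSG00000060962) spans 30763756 to 30781063 of chromosome 7 on the plus strand. It has 6 annotated transcripts, of which 5 begin between 30763756 and 30765057 and have 977 to 2063 nt, while the other, of 662 nt, begins at 30776401 within the gene. Car6 (ENSMUSG00000028972) spans 150187015 to 150201332 of chromosome 4 on the minus strand, with 4 annotated transcripts. The 250 bases before the RefSeq starts of Tmem59l and of both starts of Dmkn (GRCm38.p6) are shown because the 2 starts of Dmkn bear on its transcript form. Capitals mark matches to the motifs searched.
Tmem59l, chr8:70487349-70487598, minus strand: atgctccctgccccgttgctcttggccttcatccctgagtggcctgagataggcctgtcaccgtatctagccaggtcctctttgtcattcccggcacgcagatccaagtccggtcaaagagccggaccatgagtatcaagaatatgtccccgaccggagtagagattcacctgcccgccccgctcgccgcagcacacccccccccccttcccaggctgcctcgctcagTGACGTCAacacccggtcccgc
Dmkn, first start, chr7:30763506-30763755, plus strand: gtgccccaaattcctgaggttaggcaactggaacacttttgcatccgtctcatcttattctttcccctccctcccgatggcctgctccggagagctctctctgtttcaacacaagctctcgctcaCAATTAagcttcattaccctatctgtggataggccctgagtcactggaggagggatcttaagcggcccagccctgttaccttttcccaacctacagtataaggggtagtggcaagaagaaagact
Dmkn, start within the gene, chr7:30776155-30776404, plus strand: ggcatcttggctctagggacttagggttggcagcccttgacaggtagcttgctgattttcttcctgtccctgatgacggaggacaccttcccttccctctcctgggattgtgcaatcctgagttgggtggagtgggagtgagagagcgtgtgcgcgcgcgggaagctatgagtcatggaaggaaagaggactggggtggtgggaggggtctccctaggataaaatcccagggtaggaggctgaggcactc

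In all, 5 motifs were searched on both strands of these windows: an Ebf or Olf-1 site (TCCC and GGGA, 2 bases apart), TAATTN (a homeodomain core), TGACGTCA (the cAMP response element), TATAAA (the TATA box) and CAGCTG (an E-box). They were held by 0.779%, 24.9%, 1.55%, 12.4% and 13.0% of 32851 promoter windows, in that order. The Tmem59l window held TGACGTCA at -22 to -15 from the start. The first Dmkn window held the homeodomain core on its other strand at -125 to -120, and the window of the start within the gene held none of the motifs searched. The Car6 window held the homeodomain core at -185 to -180 and the E-box at -69 to -64. It is not printed because 197 of its bases lie in an annotated exon. GC content was 62.4% for Tmem59l, 50.8% and 57.6% for the 2 Dmkn windows and 52.4% for Car6, against a median of 52.4% over all windows. The motifs were chosen after the sequences had been seen, and a match is a description of letters only.

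Tmem59l had 33.4, 27.7 and 27.2 CPM in the P2, P7 and P16 mature neuron libraries, against 1.37, 1.05, 1.26 and 0.526 CPM in the P3, P7, P9 and P16 progenitor libraries. Every mature neuron library lay above every progenitor library, and the lowest of the mature neuron values was 19.8 times the highest progenitor value. These CPM values rest on 635 to 792 reads per mature neuron library and on 14 to 37 per progenitor library. Exact 95% Poisson intervals, which cover counting error only, ran from 31.1 to 35.8 CPM in mature neurons at P2, from 25.7 to 30 CPM at P7 and from 25.1 to 29.4 CPM at P16. The P2 library thus stood above the other mature neuron libraries by more than counting error, while P7 and P16 overlapped. Among progenitors each library's interval overlapped that of its neighbour in the order P3, P9, P7 and P16. The mean was 29.4 ± 3.46 CPM over 3 mature neuron libraries, against 1.05 ± 0.375 CPM over 4 progenitor libraries (± SD), with a log2 fold of 4.80 (SE 0.27).

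Dmkn had 63.8, 73.1 and 55.9 CPM in the P2, P7 and P16 mature neuron libraries, against 4.0, 1.63, 3.03 and 2.40 CPM in the P3, P7, P9 and P16 progenitor libraries. The populations did not overlap, with the lowest of the mature neuron values at 14 times the highest progenitor value. The counting intervals of the mature neuron libraries, 60.7 to 67.1 CPM at P2, 69.7 to 76.6 CPM at P7 and 52.9 to 59.0 CPM at P16, did not overlap each other. P7 was thus the highest of the mature neuron libraries. The P7 progenitors had the lowest value of their population, with an interval of 1.18 to 2.21 CPM that overlapped the 1.85 to 3.07 CPM of P16. The mean was 64.3 ± 8.60 CPM over 3 mature neuron libraries, against 2.77 ± 1.0 CPM over 4 progenitor libraries (± SD), with a log2 fold of 4.53 (SE 0.26).

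Car6 had 17.4, 2.6 and 15.1 CPM in the P2, P7 and P16 mature neuron libraries, against 1.11, 1.05, 0.185 and 0.526 CPM in the P3, P7, P9 and P16 progenitor libraries. Mature neurons at P7 stood apart from P2 and P16, with 61 reads against 413 and 353, and lay 2.33 times above the highest progenitor library. Its interval of 1.99 to 3.33 CPM did not overlap the 15.8 to 19.2 CPM of P2, the 13.6 to 16.8 CPM of P16 or the 0.750 to 1.59 CPM of the P3 progenitors. The mean was 11.7 ± 7.98 CPM over 3 mature neuron libraries, against 0.718 ± 0.442 CPM over 4 progenitor libraries (± SD), and the log2 fold was 4.02 with an SE of 0.71. The highest and lowest mature neuron libraries differed 6.72-fold for Car6, 1.31-fold for Dmkn and 1.23-fold for Tmem59l. In pooled cells, fewer cells with a transcript and less of it per cell cannot be told apart.

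**Figure D1:**
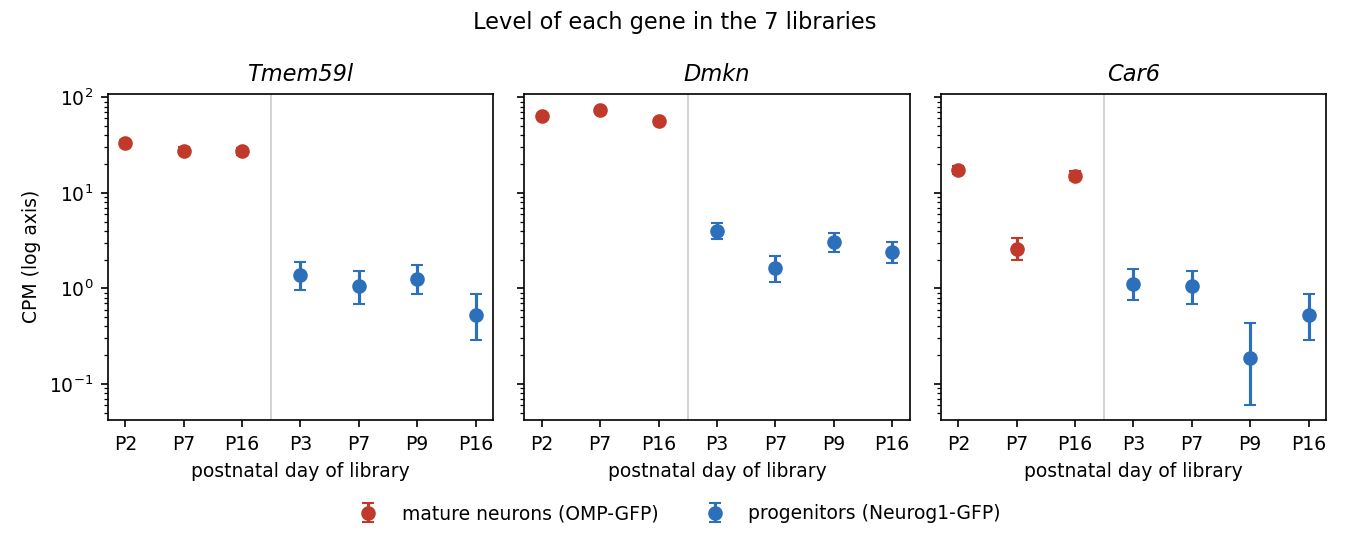
CPM (log axis) of Tmem59l, Dmkn and Car6 in each library, with mature neurons at P2, P7 and P16 left of the line and progenitors at P3, P7, P9 and P16 right of it; bars are exact 95% Poisson intervals. Tmem59l stays between 27.2 and 33.4 CPM and Dmkn between 55.9 and 73.1 CPM in mature neurons, while Car6 is at 2.6 CPM at P7 against 17.4 and 15.1 CPM at P2 and P16.

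At matched ages the excess of Tmem59l was 26.5-fold at P7 and 51.6-fold at P16, and that of Dmkn was 44.8-fold at P7 and 23.2-fold at P16, as ratios of CPM. For Car6 it was 2.47-fold at P7 and 28.7-fold at P16. Each of these ratios sets 1 library against 1 other and has no replicate check.

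The members were the 4th, 5th and 6th by fold among 3007 genes that were called higher, averaged at least 10 CPM in mature neurons and had no overlap between the populations, with receptor genes and unnamed gene models left out. Above them stood Rps3a3, Tpm3-rs7 and Rpl26, from 6.88 to 5.35. Directly outside lay Kcnrg at a log2 fold of 3.99 and Fut10 at 3.78, so that Car6 and Kcnrg differed far less than the SE of Car6. In all, 58.8% of tested genes were called, 28.8% higher and 30.0% lower in mature neurons. The libraries of the populations did not overlap for 29.2% of tested genes higher and 32.2% lower. As the members were chosen on this contrast, nothing is read from their place in it.

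Levels of different genes are comparable only per length, as TPM, which scales counts for transcript length and library size. In mature neurons Dmkn had 132 ± 21.9 TPM, Tmem59l 31.2 ± 3.97 TPM and Car6 12.8 ± 8.33 TPM (SD, n = 3 each). Their libraries did not overlap, at 111 to 155 TPM for Dmkn, 27.8 to 35.6 TPM for Tmem59l and 3.22 to 18.4 TPM for Car6. Dmkn had a higher TPM than 93.4% to 95.4% of the genes above 0 in each mature neuron library. Tmem59l exceeded 76.4% to 80.4% of them, and Car6 exceeded 70.1% at P2, 47.3% at P7 and 69.0% at P16. In progenitors Dmkn had 6.24 ± 1.97 TPM, Tmem59l 1.19 ± 0.435 TPM and Car6 1.03 ± 0.691 TPM (SD, n = 4 each), so Dmkn was again the highest, while Tmem59l and Car6 lay within each other's SD.

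The deposited counts and TPM together carry information on the length of the Dmkn transcript, which the choice of genes did not use. A TPM value divides by transcript length, so the number of reads counted per TPM grows with the length assigned to a gene. For Dmkn there were 11.6, 11.1 and 11.7 reads per TPM in the P2, P7 and P16 mature neuron libraries, against 12.5, 10.4, 12.1 and 11.7 in the P3, P7, P9 and P16 progenitor libraries. Genes whose only annotated transcript is within 10% of 662 nt, the length of the Dmkn transcript that starts within the gene, had medians of 9.41 to 10.1 reads per TPM in mature neurons (25 to 29 genes with at least 100 counts). Genes within 10% of 2063 nt, the longest Dmkn transcript, had medians of 30.9 to 32.5 and their 5th percentiles were 17.4 or more (120 to 122 genes). Dmkn thus lay under the 5th percentile of the long transcript's genes in every library, with 15.4 as the lowest 5th percentile in progenitors. It lay within the 5th to 95th percentile of the short transcript's genes in all 7 libraries but above their 75th percentile in 6, which was 9.93 to 10.8 in mature neurons. The annotated transcript of 977 nt was not set against genes of its length. Tmem59l had 21.6 to 22.8 reads per TPM in mature neurons, beside medians of 21.7 to 22.7 for genes near the 1491 nt of its coding transcript. Car6 had 22.5 at P2, 18.9 at P7 and 21.0 at P16, beside medians of 22.7 to 24 for genes near 1567 nt. The release of annotation that the authors used is not given in the sources used here.

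**Figure D2:**
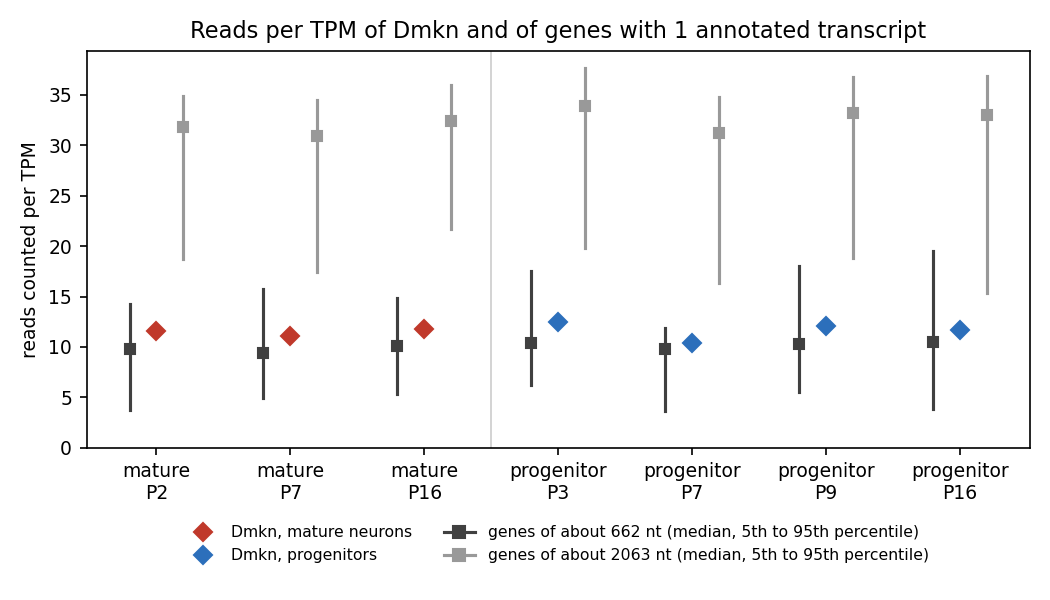
Reads counted per TPM for Dmkn (diamonds) in each library, with mature neurons left of the line and progenitors right of it; squares and bars are the median and the 5th to 95th percentile of genes with 1 annotated transcript of about 662 nt (dark) or 2063 nt (light). Dmkn, at 10.4 to 12.5 reads per TPM, lies above the dark squares, within the dark bars, and below the light bars in all 7 libraries.

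Change with age was tested, since the choice of genes did not use it. None of the 3 genes passed the test of a slope on log2 postnatal day shared by both populations (edgeR quasi-likelihood, adjusted over 17975 genes). The slope per log2 unit was -0.18 for Tmem59l (95% interval -0.44 to 0.08, adjusted p = 0.313), -0.13 for Dmkn (-0.41 to 0.16, adjusted p = 0.537) and -0.22 for Car6 (-0.98 to 0.54, adjusted p = 0.698). Within mature neurons the slope was -0.10 for Tmem59l (-0.41 to 0.20, edgeR adjusted p = 0.593), -0.05 for Dmkn (-0.44 to 0.34, adjusted p = 0.867) and -0.13 for Car6 (-1.15 to 0.90, adjusted p = 0.866). The difference of slopes between mature neurons and progenitors was 0.34, 0.24 and 0.45 for Tmem59l, Dmkn and Car6 (edgeR adjusted p = 0.824, 0.864 and 0.927), with intervals from -0.30 to 0.97, -0.46 to 0.95 and -1.85 to 2.75. These fits called 0 genes (0% of those tested) for each slope, with 3746, 3284 and 1075 genes at an unadjusted p under 0.05. DESeq2 called 647 genes higher and 853 lower with age for the shared slope, 378 and 397 for the slope in mature neurons and 5 and 1 for the difference, and none of the 3 genes was among them. A straight slope does not describe Car6, whose low library lies between 2 higher ones in age.

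The genes around each member were then compared between the populations, as the choice of genes did not use them. Of all tested genes 58.8% were called and 28.8% were higher, and counts of so few neighbours are not set apart from those shares. Within 100 kb of the start of Tmem59l 8 genes were tested, and 2 of those reported here were higher in mature neurons. Fkbp8, a chaperone of the mitochondrial surface, and Rex1bd each had a log2 fold of 0.28 (edgeR adjusted p = 0.0129 and 0.0377). On log2(TPM + 1) both calls were lost (limma adjusted p = 0.105 for Fkbp8 and 0.0936 for Rex1bd). That of Rex1bd was also lost without the filter (edgeR adjusted p = 0.0705), without the P2 or P16 mature neuron library (0.0501 and 0.105) and without the P7, P9 or P16 progenitor library (0.0972, 0.0801 and 0.0771).

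Around Dmkn 6 of 16 annotated genes were tested, and 3 were higher in mature neurons. Sbsn, which encodes suprabasin, begins 12.3 kb upstream and had 2.32, 2.0 and 4.15 CPM in the P2, P7 and P16 mature neuron libraries, against 0.445, 0.777, 0.814 and 0.676 CPM in the P3, P7, P9 and P16 progenitor libraries. The populations did not overlap, and its log2 fold was 2.05 (SE 0.33, edgeR adjusted p = 9.73e-04). Krtdap, the other keratinocyte gene of the locus, begins 24.1 kb downstream. It held 14 reads in mature neurons, all in the P2 library, and 1 read in progenitors, and it did not pass the filter. Tmem147, a membrane protein of the endoplasmic reticulum, and its antisense partner Tmem147os had log2 folds of 0.31 and 0.45 (edgeR adjusted p = 0.0396 and 0.00685). The strand setting of the counting is not given, so reads of this pair may be mixed. A further annotated gene named Tmem147os had 0 reads but 32.1 TPM in mature neurons and 12.0 TPM in progenitors, and was not tested. The call on Tmem147 was lost without the filter (edgeR adjusted p = 0.0734) and when any of 5 libraries was left out (P2 or P16 of mature neurons, P7, P9 or P16 of progenitors, adjusted p = 0.0803 to 0.101), and that on Tmem147os in the fit of P7 and P16 alone with age as a block (0.0785).

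Around Car6 3 of 6 annotated genes were tested. Eno1, a glycolytic enolase that begins 35.4 kb upstream, was at 105 ± 13.1 CPM over 3 mature neuron libraries, against 22.4 ± 1.75 CPM over 4 progenitor libraries (± SD, log2 fold 2.23, SE 0.10, edgeR adjusted p = 4.43e-06). In TPM, Eno1 stood far above its CPM, at 647 in mature neurons and 166 in progenitors, so its fold on counts may be uncertain. Rere, a nuclear corepressor, had a log2 fold of -0.56 (edgeR adjusted p = 0.00235). Slc2a5, a fructose transporter, had one of -1.58 (edgeR adjusted p = 0.0188) at 0.254 ± 0.151 CPM over 3 mature neuron libraries, against 0.772 ± 0.282 CPM over 4 progenitor libraries (± SD). Its call was lost without the P7 or P16 mature neuron library (0.0681 and 0.0512). A further 8 tested neighbours of the 3 genes were not called, with log2 folds from -0.40 to 0.22.

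**Figure D3:**
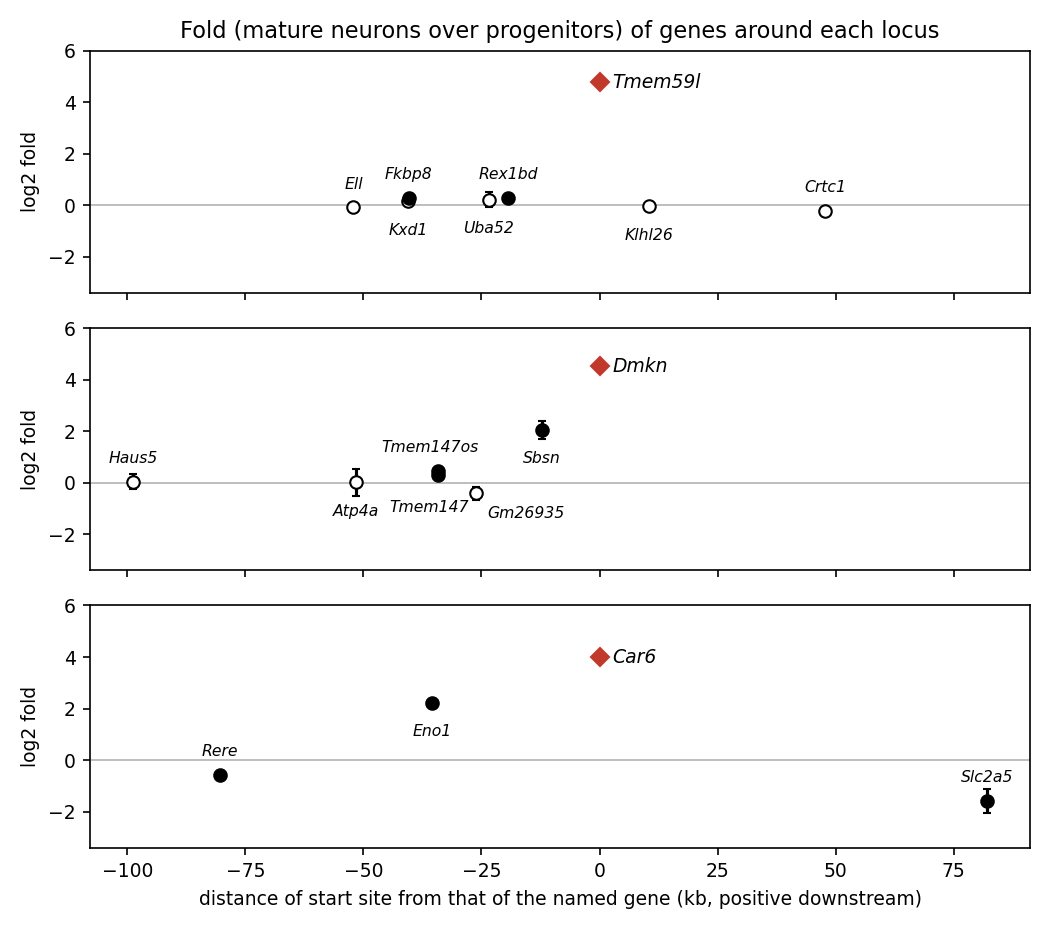
Log2 fold (mature neurons over progenitors, 3 and 4 libraries) of the tested genes reported within 100 kb of Tmem59l, Dmkn and Car6, against the distance of their start from that of the named gene in its direction of transcription; filled circles passed the edgeR test, open circles did not, and bars on the circles are standard errors. The named genes (diamonds) stand at 4.80, 4.53 and 4.02, with Sbsn at 2.05 and Eno1 at 2.23 as the highest neighbours.

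Of the pathway lists, that of Tmem59 and amyloid precursor processing had 19 tested genes, of which mature neurons had 8 higher and 3 lower, with a median log2 fold of 0.34, against a median of 0.01 and calls of 28.8% and 30.0% over all tested genes. Tmem59 itself, the relative of Tmem59l, was at 417 ± 55.2 CPM over 3 mature neuron libraries, against 247 ± 25.4 CPM over 4 progenitor libraries (± SD, log2 fold 0.75, edgeR adjusted p = 6.09e-04). Per length it had 437 TPM in mature neurons and 283 TPM in progenitors, so it exceeded Tmem59l in both. Itm2c, a membrane protein that binds the amyloid precursor, had a log2 fold of 1.42 (SE 0.10) and Aph1b, a gamma-secretase subunit, one of 0.52 (SE 0.08). Atg16l1, an autophagy protein that Tmem59 binds, stood at -0.52 on the log2 scale (SE 0.07, edgeR adjusted p = 2.61e-04). Of 21 autophagy genes 3 were higher and 6 lower, with a median log2 fold of -0.00, among them the kinase Ulk1 at -0.97 (SE 0.08).

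Among the other 15 carbonic anhydrase genes 7 passed the filter, and 1 was higher and 1 lower in mature neurons. Over all tested genes 28.8% were higher and 30.0% lower, the background for the counts given here. Car2, the cytosolic enzyme that carbon dioxide-sensing olfactory neurons use, had 155, 167 and 233 CPM in the P2, P7 and P16 mature neuron libraries, against 51.0, 23.4, 45.1 and 40.1 CPM in the P3, P7, P9 and P16 progenitor libraries. The populations did not overlap and the log2 fold was 2.21 (SE 0.25, edgeR adjusted p = 1.51e-04). Car2 had 161 TPM in mature neurons, more than the 12.8 TPM of Car6, and it was not low at P7. Without the P16 mature neurons 2 of the 7 were lower. Car7, another cytosolic member, stood at -0.79 on the log2 scale (SE 0.18, edgeR adjusted p = 0.00604). Car11, an inactive relative, was at 28.8 ± 2.84 CPM over 3 mature neuron libraries, against 29 ± 3.83 CPM over 4 progenitor libraries (± SD). Of 13 tested genes of bicarbonate transport 4 were higher, a share close to that of all tested genes, and 2 lower (median log2 fold 0.24). Among them were the sodium bicarbonate cotransporter Slc4a4 at 1.78 (SE 0.17) and Slc4a5 at -3.62 (SE 0.36). Gucy2d, the guanylyl cyclase of carbon dioxide-sensing neurons, was higher by 2.95 on the log2 scale (SE 0.31, edgeR adjusted p = 9.70e-05). All 3 tested genes of the list for such neurons, Car2 among them, were higher, with summed levels of 170 to 251 CPM in mature neurons and 24.7 to 54.3 CPM in progenitors. Car2 made up most of these sums, so they say little of the other members. The remaining listed gene, Pde2a, did not pass the filter, with 14 reads in mature neurons and 18 in progenitors (4.82 and 6.34 TPM).

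Secretory gland genes were measured beside Car6. Of 21 tested secretory gland genes 6 were higher in mature neurons and 0 lower, with a median log2 fold of 0.77; the share called higher is close to the 28.8% of all tested genes. The count was 3 on log2(TPM + 1) and without the P3 or P9 progenitor library, and 2 genes were lower without the P16 mature neuron library. Their summed level was 595, 387 and 2379 CPM in the P2, P7 and P16 mature neuron libraries. In progenitors it lay between 242 and 441 CPM. P7 thus had the lowest sum of the mature neuron libraries. Single genes made up much of these sums, Bpifa1 with 263 and 179 CPM at P2 and P7 and Obp1a with 788 CPM at P16. The sums thus say little of the other members. Ltf, which encodes lactoferrin, a secreted iron-binding protein, had 43.4, 12.8 and 40.0 CPM in the P2, P7 and P16 mature neuron libraries, against 9.15, 9.01, 6.33 and 9.05 CPM in the P3, P7, P9 and P16 progenitor libraries. It too was low at P7 in mature neurons and lowest at P9 in progenitors (log2 fold 1.93, SE 0.37, edgeR adjusted p = 0.00236). Bpifb9a, a secreted protein of the BPI fold family, and Obp1a, an odorant-binding protein of nasal glands, were lowest in the same libraries, P7 of mature neurons and P9 of progenitors, but stood far higher at P16 than at P2 in mature neurons. Bpifb9a, which was called, had 22.8, 16.9 and 193 CPM in the P2, P7 and P16 mature neuron libraries, and Obp1a 2.57, 0.511 and 788 CPM. Bpifa1, another secreted gland protein, and Aqp5, a water channel of gland cells, were highest in mature neurons at P2 and lowest at P16. The part of gland cells in the level of Car6 was not tested.

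**Figure D4:**
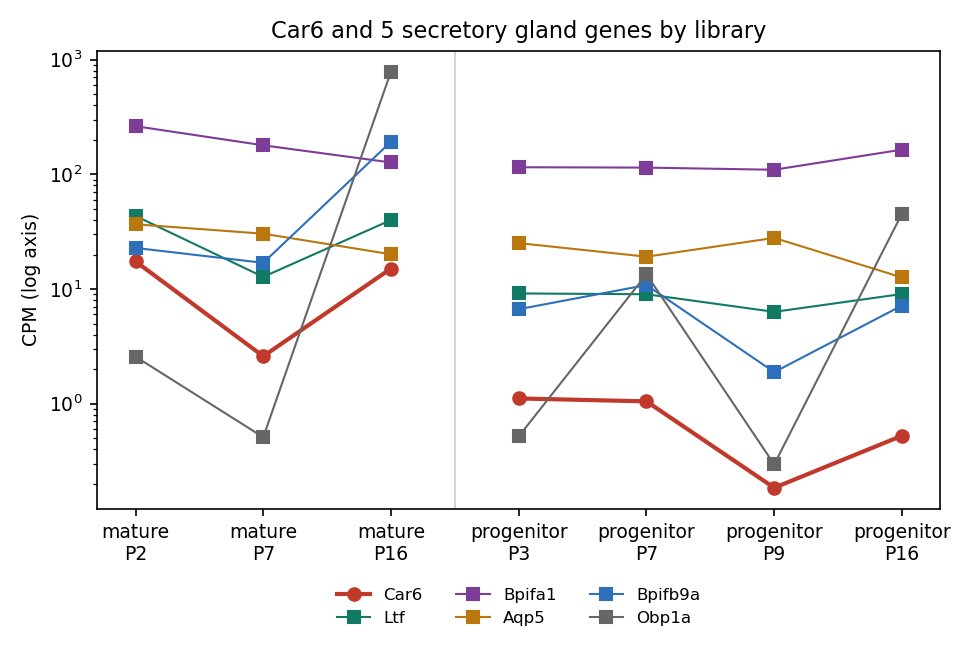
CPM (log axis) of Car6 and of the secretory gland genes Ltf, Bpifa1, Aqp5, Bpifb9a and Obp1a in each library, with mature neurons left of the line and progenitors right of it; lines join the libraries of a population in order of age. Car6 (2.6 CPM) and Ltf (12.8 CPM) both dip in mature neurons at P7, while Bpifb9a and Obp1a peak at P16 with 193 and 788 CPM.

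Most transcripts of epidermal keratinocytes were at low levels. Of 33 such genes (Dmkn not among them) 18 did not pass the filter, 15 stayed below 1 CPM and 29 below 10 CPM in every library. Flg, encoding filaggrin, had 2 reads in mature neurons and 0 in progenitors, and Ivl, encoding involucrin, had 10 reads in mature neurons and 8 in progenitors. Krt13 had 153 reads in mature neurons and 1 in progenitors. Its mature neuron levels were 6.41 CPM at P2, 0.0425 at P7 and 0 at P16. Reads in mature neurons and progenitors were 57 and 19 for Krt4, 53 and 18 for Krt6a, and 60 and 19 for Ly6d. Tgm1 had 15 and 26. None of these genes passed the filter. The highest were Dsp and Ppl, which encode the plakin proteins desmoplakin and periplakin, with Dsp at 61.5 to 111 CPM in mature neurons and 106 to 134 CPM in progenitors, and Ppl at 99.4 to 114 CPM in mature neurons and 96.9 to 120 CPM in progenitors. They make up most of the summed list, at 222 to 290 CPM in mature neurons and 258 to 302 CPM in progenitors, so the sum says little of the other members. Among 15 tested members 5 were higher and 3 lower, against 28.8% and 30.0% of all tested genes, with Sbsn, Krt1 and Cst6 among the higher ones, Sfn at a log2 fold of 1.28 (SE 0.21) and Dsc3, a desmosomal cadherin, at 1.74 (SE 0.35). The 3 lower ones were Tgm3 at -3.16 (SE 0.78, on 4 reads in mature neurons and 58 in progenitors), Pkp1 at -1.58 (SE 0.42) and Pkp3 at -0.89 (SE 0.31). Without the P3 or P7 progenitor library 1 member was lower. The part of keratinocytes in the level of Dmkn was not tested.

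Transcripts listed as markers of other cell types were found in both populations. Whether they came from such cells, and the part of such cells in the levels of the 3 genes, was not tested. Over all tested genes 28.8% were higher and 30.0% lower, the background for the counts of each cell type. Of 15 sustentacular genes tested 5 were higher and 0 lower, with summed levels of 4424 to 5321 CPM in mature neurons and 2498 to 3947 CPM in progenitors. The sustentacular count was 1 on log2(TPM + 1) and without the P2 mature neurons, 2 without the P7 mature neurons or the P3, P7 or P16 progenitors, 8 without the P16 mature neurons and 10 in the fit of P7 and P16 alone. Leukocyte genes were higher for 11 of 14 tested (6 without the P16 mature neurons, 7 without the P7 progenitors) and summed to 43.8, 29.1 and 211 CPM in the P2, P7 and P16 mature neuron libraries and 11.7 to 36.2 CPM in progenitors. Erythroid genes were higher for 1 of 5 (0 without the P16 mature neurons or the P3, P7 or P9 progenitors), with 34.9 to 288 CPM in mature neurons and 17.4 to 124 CPM in progenitors. Horizontal basal cell genes were higher for 1 of 9 (0 without the P2 mature neurons, 2 without the P7 or P16 mature neurons or the P3 progenitors), with 33.1 to 54.0 CPM in mature neurons and 31.8 to 44.4 CPM in progenitors. Of 7 microvillous genes 1 was higher (3 without the P16 mature neurons, 2 without the P16 progenitors) and 1 lower (2 without the P7 mature neurons), with 96.7 to 107 CPM in mature neurons and 131 to 176 CPM in progenitors. Of 7 ensheathing glia genes 5 were higher (1 without the P16 mature neurons, 2 or 3 without the P3, P7 or P9 progenitors) and 1 lower, with 59.2 to 108 CPM in mature neurons and 104 to 110 CPM in progenitors. Most of the glia sum in progenitors was Mbp, the gene called lower (80.4 to 97.1 CPM, against 24.6 to 28.1 in mature neurons). Likewise Coch, the microvillous gene called lower, made up most of that sum in progenitors (79.2 to 137 CPM, against 14.4 to 52.1 in mature neurons). The glia and microvillous sums thus say little of the other members. No listed marker was at 0 in all libraries.

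The genes whose pattern was most like each member were found by Pearson r of log2 CPM over the 7 libraries, among 14043 genes. This r is a description, as the libraries share the split between the populations and the members were chosen for it. For Tmem59l the closest were Zfp125 (r = 0.9995), Ndufs5 (0.9992), Plac8, Acot2 and Astn1. For Dmkn they were Sec23b (r = 0.9987), Kirrel (0.9987), Slc16a6, Zfp474 and Sdha. Kirrel, a nephrin-like cell adhesion molecule, had a mean of 267 CPM in mature neurons, against 20.3 in progenitors (log2 fold 3.71). Zfp125 and Ndufs5 rest on 13 and 21 reads in progenitors, and Ndufs5 had 89.5 TPM in mature neurons against 32.2 TPM in progenitors. In all, 1176 genes had an r above 0.95 with Tmem59l and 1414 with Dmkn, against 15 with Car6. For Car6 the closest were Plcxd3 (r = 0.984), Ogg1 (0.984), Clpx, Ltf (0.975) and Gnb1l. Tmem59l and Dmkn had an r of 0.985 with each other, and Car6 had 0.868 with Tmem59l and 0.836 with Dmkn.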

How the data were processed

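RNA sequencing was done on poly(A) RNA extracted with TRIzol from sorted cells, with a TruSeq Stranded mRNA kit, per the labels' protocols. The genome build mm10 and the tools STAR 2.6.1c, RSEM and bcl2fastq 2.18 appear in the submitters' processing notes, with no role. Neither annotation release nor strand setting is given in the sources used here. The authors deposited whole-number read counts per gene, and the authors deposited TPM values, scaled for transcript length and to 1 total per library. In the count table, 4 entries that name no gene held 23.53% to 27.22% of each library's total and were left out. One of them holds multi-mapping reads, so counts of genes with near-identical copies (among them Rps3a3, Tpm3-rs7 and Rpl26) are uncertain. In mature neurons Eno1 had 105 CPM against 647 TPM, and Ndufs5 4.29 CPM against 89.5 TPM. Their counts may be uncertain too, and the cause was not tested.

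Genes were tested by quasi-likelihood fits in edgeR 4.0.16 under R 4.3.3 (TMM scaling, filterByExpr), with Benjamini-Hochberg adjustment over all tested genes at 0.05, on population, on population with log2 postnatal day, and with a slope in each population (5, 4 and 3 residual degrees of freedom). Folds are mature neurons over progenitors. CPM values use TMM library sizes. Intervals of slopes are estimate and SE with the t distribution on the residual degrees of freedom. Alternatives were DESeq2 1.42.0 size factors, no filter, the DESeq2 test, limma 3.58.1 on log2(TPM + 1) and log2(TPM + 0.1), each library left out, and a fit of P7 and P16 alone with age as a block. GENCODE M21 (GRCm38) gave loci and transcript lengths, and matched 54409 of 54532 gene IDs; RefSeq gave the promoter windows, with all 3 genes matched.

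The members and the 15 gene lists were chosen with earlier results of these data known. Named genes are the members, up to 4 called genes of a list with the smallest p, tested neighbours within 100 kb, the 5 genes of highest r per member and the genes beside the members in the ranking. Others named (Omp, Krtdap, Krt1, Krt13, Krt4, Krt6a, Ly6d, Tgm1, Dsp, Ppl, Car11, Flg, Ivl, Obp1a, Bpifa1, Aqp5, Scgb1c1, Bpifb3, Tgm3, Pkp1, Pkp3, Pde2a) were chosen after their values were seen. Lcn13 and Lcn14 were listed but absent from the tables as matched by symbol. One tested neighbour is not reported here.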

Additional observations from a re-analysis of the deposited data

Results flagged for a closer look

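The summed CPM of leukocyte genes in progenitors was set apart by 1 library. The P16 progenitors were at 36.2 CPM and the other 3 progenitor libraries between 11.7 and 14.5 CPM, so that the gap to the nearest was 0.884 of the range. Of 21 groups of 4 libraries examined, 1 was set apart in this way, and chance gives about 1 in 20. Tmem59l, Dmkn and Car6 in progenitors were not.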

How the results depend on the processing

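The excess of the 3 genes in mature neurons kept its direction under all alternatives run. On log2(TPM + 1), whose pseudocount shrinks low values, the log2 fold was 3.89 for Tmem59l and 2.55 for Car6. In the fit of P7 and P16 alone with age as a replicate block it was 5.15 for Tmem59l, 4.99 for Dmkn and 3.08 for Car6; the block rests on shared ages, as the labels give no pairs. Leaving out each library gave 4.57 to 4.95, 4.34 to 4.76 and 3.62 to 4.50. The counts of genes called on age depended on the fit. Without the filter 315 were higher and 455 lower with age for the shared slope, and 86 and 54 for the slope in mature neurons. With DESeq2 these were 647 and 853, and 378 and 397, and 5 and 1 for the difference of slopes. Leaving out libraries gave 0 to 367 higher and 0 to 619 lower for the shared slope, with the highest values without the P7 mature neurons, 0 to 290 and 0 to 525 for the slope in mature neurons (84 and 132 without P2, the highest without P7 mature neurons), and 0 to 1 and 0 to 2 for the difference. None of the 3 genes was called in any of these. Their slopes changed sign in some of them. Leaving out libraries gave a shared slope of -1.06 to 0.092 for Car6 (its highest without P2 mature neurons), a mature neuron slope of -0.33 to 0.11 for Dmkn and -1.52 to 2.13 for Car6, and a difference of slopes of -0.30 to 0.40 for Dmkn and -0.94 to 2.70 for Car6. The signs turned without P2 mature neurons for both Car6 slopes, without P16 mature neurons for the Dmkn slope and for the Car6 difference, and without P2 mature neurons (-0.034) or P3 progenitors for the Dmkn difference. The causes were not tested. Of 56 other genes called on population by the rule for named genes, 41 were called under all alternatives with an adjusted p, and none changed sign. The mean of the medians of reads per TPM of genes near 662 nt was 9.75 in mature neurons, and 9.37 with at least 500 counts, a choice made after seeing the data. The few reads of the 3 genes in progenitors (5 to 108 per library) limit the precision of every fold.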
